A study of Homo sapiens with 12 samples.

Results

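The circadian clock genes described here are 10 genes: BMAL1, CLOCK, NPAS2, PER1, PER2, PER3, CRY1, CRY2, NR1D2 and DBP. They were taken by name from the 18377 genes with a symbol of their own on Affymetrix human gene arrays, and each was measured by 1 transcript cluster (a set of probes along a gene). The list was drawn up because BMAL1 moved in opposite directions between genotypes in the study's cell lines, and it was in that sense selected on the genotype changes of BMAL1. Those changes are given below as a description, with no test. The 12 arrays hold RNA from HCT116 and DLD1, established colon cancer lines. In both, a catalytic subunit of PI3K, a lipid kinase that acts upstream of AKT, is mutated and active in 1 allele. The mutated allele is H1047R in HCT116 and E545K in DLD1, so mutation and line cannot be told apart. Gene targeting had removed 1 allele, so that mutant-only cells kept the mutated copy and wild-type-only cells the normal copy. The groups are HCT116 mutant-only, HCT116 wild-type-only, DLD1 mutant-only and DLD1 wild-type-only, with 3 arrays each that the labels call biological replicates. All 4 groups were starved for 19 h in medium with 0.5% serum. The sources used here give neither the hour of the day at harvest nor a synchronising step. Each genotype of a line is named as 1 derived line, so genotype and chance differences between the derived lines cannot be told apart. In RNA from a whole culture, fewer cells expressing a gene and less RNA per cell cannot be told apart either.

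The mammalian clock is a transcriptional feedback loop. BMAL1 pairs with CLOCK or its relative NPAS2 on E-boxes and drives the PER and CRY genes, whose proteins return to the nucleus and block that pair. The same pair drives NR1D1 and NR1D2, the REV-ERB nuclear receptors, which repress BMAL1 through ROR elements that the ROR receptors activate, and DBP, which acts on D-boxes in competition with the repressor NFIL3. In mouse liver, BMAL1 RNA is therefore high when REV-ERB, PER and DBP RNA is low. In cultured cells the loop runs in each cell, and a change of serum can bring cells into step. All groups had the same 19 h of starvation, with no series of harvest times. A difference of phase, of amplitude and of mean level thus cannot be told apart in these data.

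Promoter windows from RefSeq (GRCh38.p14, 250 bases before to 50 bases after an annotated start) were found for all 10 genes, 15 windows in all. They were searched on both strands for the E-box CACGTG, the E-prime box CACGTT, the D-box TTANGTAA, the ROR element (AANTN followed directly by GGTCA) and the cAMP response element TGACGTCA. The 5 windows below are shown because they hold matches to elements of the loop described above, for BMAL1, NR1D2 and the PER genes. Matches are in capitals and all other bases in lower case.
BMAL1 (chr11:13277540-13277839, plus strand): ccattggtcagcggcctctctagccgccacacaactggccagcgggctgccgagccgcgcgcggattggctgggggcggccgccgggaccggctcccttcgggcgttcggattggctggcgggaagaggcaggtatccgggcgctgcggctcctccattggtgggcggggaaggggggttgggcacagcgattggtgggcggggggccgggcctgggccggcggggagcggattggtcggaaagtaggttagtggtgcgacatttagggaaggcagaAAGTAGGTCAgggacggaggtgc
NR1D2 (chr3:23945871-23946170, plus strand): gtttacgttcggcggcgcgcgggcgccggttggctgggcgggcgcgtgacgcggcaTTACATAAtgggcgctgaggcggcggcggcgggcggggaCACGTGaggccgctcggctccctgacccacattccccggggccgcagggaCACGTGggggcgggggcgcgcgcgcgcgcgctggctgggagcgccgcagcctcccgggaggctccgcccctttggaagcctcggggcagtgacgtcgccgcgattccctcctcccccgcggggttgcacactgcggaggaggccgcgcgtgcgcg
PER1 (chr17:8152355-8152654, minus strand): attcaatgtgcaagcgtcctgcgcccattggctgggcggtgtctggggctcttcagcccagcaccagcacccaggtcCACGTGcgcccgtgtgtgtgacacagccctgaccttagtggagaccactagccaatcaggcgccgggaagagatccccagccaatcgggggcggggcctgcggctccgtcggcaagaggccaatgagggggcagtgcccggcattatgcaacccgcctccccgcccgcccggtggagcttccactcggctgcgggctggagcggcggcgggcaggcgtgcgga
PER2 (chr2:238288561-238288860, minus strand): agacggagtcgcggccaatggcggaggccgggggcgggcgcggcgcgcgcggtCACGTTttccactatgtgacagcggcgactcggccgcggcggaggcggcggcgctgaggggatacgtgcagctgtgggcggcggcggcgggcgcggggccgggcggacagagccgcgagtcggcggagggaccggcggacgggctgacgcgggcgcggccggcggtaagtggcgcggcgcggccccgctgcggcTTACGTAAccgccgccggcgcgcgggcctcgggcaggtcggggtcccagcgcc
PER3 (chr1:7784041-7784340, plus strand): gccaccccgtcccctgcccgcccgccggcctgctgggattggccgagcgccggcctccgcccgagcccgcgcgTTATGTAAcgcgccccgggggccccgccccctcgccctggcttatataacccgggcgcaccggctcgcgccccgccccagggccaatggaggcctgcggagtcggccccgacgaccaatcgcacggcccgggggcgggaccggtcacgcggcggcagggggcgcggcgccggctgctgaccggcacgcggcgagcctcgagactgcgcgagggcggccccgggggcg
The BMAL1 window holds a ROR element 27 bases after the start site. NR1D2 holds a pair of E-boxes, 155 and 105 bases before the start, and a D-box 194 bases before it. The PER1 window has an E-box 173 bases before the start, the PER2 window an E-prime box 197 bases before and a D-box 3 bases before, and the PER3 window a D-box 177 bases before. Among the 10 genes an E-box was found for 2, an E-prime box for 4, a D-box for 3 and a ROR element for 2, BMAL1 and CLOCK. Of 35116 windows of the same length, 7.26% held the E-box, 5.34% the E-prime box, 2.18% the D-box, 0.581% the ROR element and 1.85% the cAMP response element, which none of the 10 genes held. A match describes letters in the window and is not evidence of binding.

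The median log2 value of an array lay between 7.42 and 7.53. The epithelial markers EPCAM (12.16 to 12.67), KRT8 (12.91 to 13.52) and KRT18 (12.54 to 13.33) were high on every array. CDH1 lay between 10.80 and 12.72 and CDX2 between 8.77 and 10.57. Lower values were found for VIL1 (6.41 to 7.02), LGALS4 (7.22 to 7.74) and CDX1 (7.71 to 7.90). Of 8 epithelial markers, CDH1 (log2 change 0.20, adjusted p = 0.0251) and KRT8 (0.20, adjusted p = 0.0367) rose in HCT116 mutant-only cells, where 6.16% of all genes were called. In DLD1 none passed (8.77% of all genes did). With the replicate number as a block CDX2 passed there (0.17, adjusted p = 0.0331, against 13.5% of all genes). None of 6 markers of other cell types passed in HCT116 (6.16% of all genes) or DLD1 (8.77%). The endothelial gene PECAM1 (5.57 to 5.76 over all arrays) and the hepatocyte gene ALB (5.43 to 5.57) were among them. The part of the epithelial markers in the results below was not tested. No detection call was used, so a low level is not shown to be above background. Levels are log2 values of a gene's own cluster and are compared between groups only, never between genes.

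BMAL1 (cluster 7938563), the DNA-binding activator of the loop, was lower in HCT116 mutant-only cells and higher in DLD1 mutant-only cells than in their wild-type-only counterparts. On the log2 scale its levels were 8.21, 7.72 and 8.06 in HCT116 mutant-only cells and 9.25, 8.55 and 9.04 in HCT116 wild-type-only cells. In DLD1 they were 8.66, 8.42 and 8.47 in mutant-only cells and 8.02, 7.98 and 7.61 in wild-type-only cells. The arrays of the genotypes did not overlap in either line (22.0% of all genes had no overlap in HCT116 and 28.3% in DLD1). The log2 change was -0.95 (SE 0.168, 1.93-fold lower) in HCT116 and 0.65 (SE 0.168, 1.57-fold higher) in DLD1. By same-numbered arrays, mutant-only minus wild-type-only, it was -1.04, -0.82 and -0.98 in HCT116, and 0.64, 0.44 and 0.86 in DLD1. HCT116 wild-type-only and DLD1 mutant-only cells held the higher levels, and those groups overlapped. In the plot of values by array, no other of the 10 genes has genotypes apart in both lines. The genotype changes of BMAL1 chose the list, so this is a description only. In a wider clock list described below, NFIL3, GSK3B, PRKAA2 and KLF9 were also apart in both lines. The share of all genes apart in both lines was not counted. For PRKAA2 in DLD1 the nearest arrays were at 5.603 in mutant-only and 5.607 in wild-type-only cells, levels not shown to be above background.

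**Figure D1:**
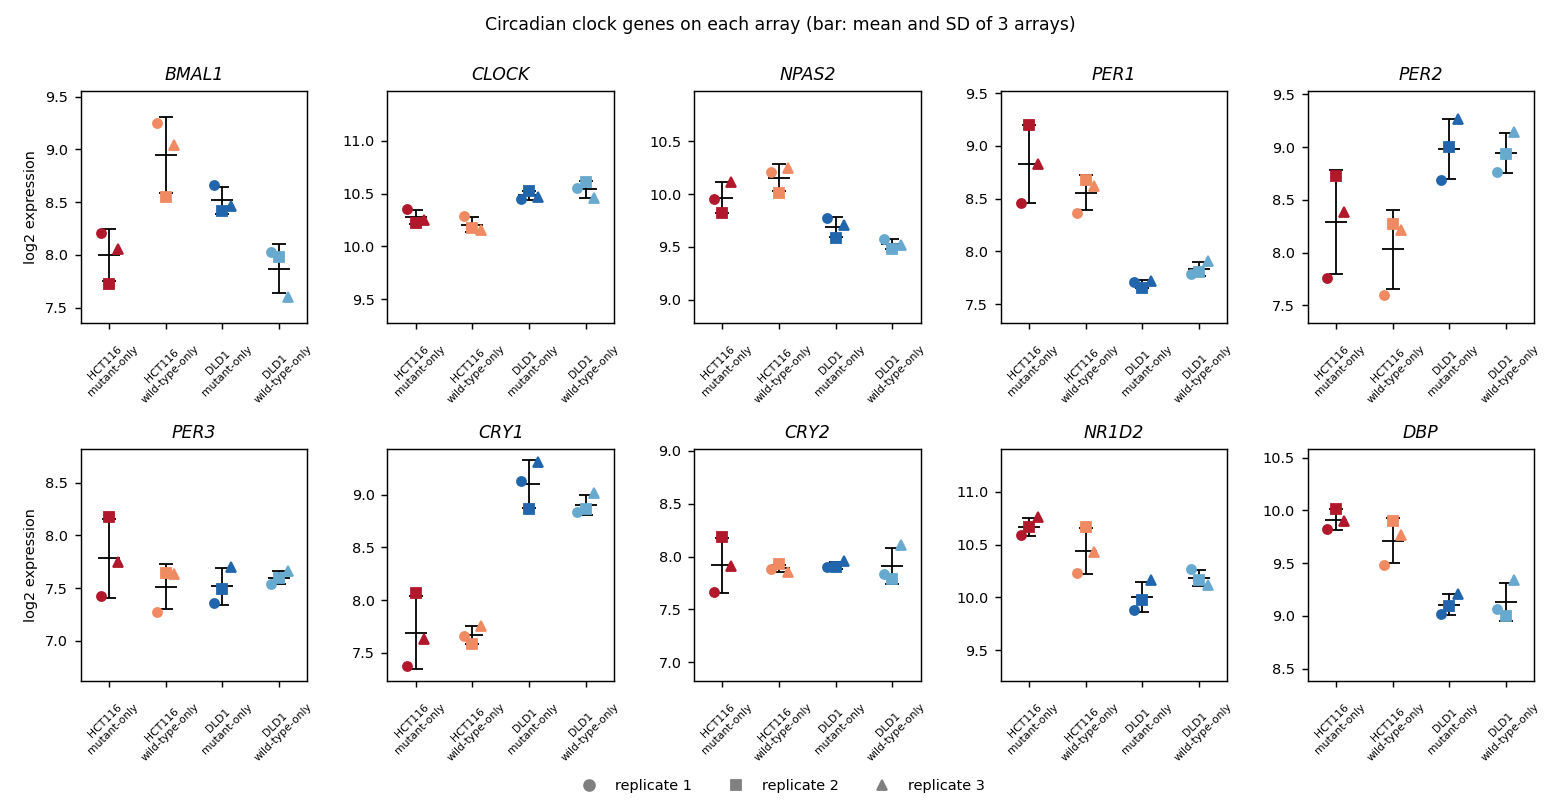
Log2 expression (y axis, the same span of 2.2 in every panel) of the 10 clock genes on each of 12 arrays by group (x axis), with marker shape for the replicate number and a black bar for the mean and SD of 3 arrays. BMAL1 is at 7.72 to 8.21 in HCT116 mutant-only cells against 8.55 to 9.25 in HCT116 wild-type-only cells, and the lines do not overlap for CRY1 and DBP, whose genotypes do.

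NPAS2 and CLOCK, the partners of BMAL1, had smaller differences between genotypes. NPAS2 had log2 levels of 9.95, 9.83 and 10.12 in HCT116 mutant-only cells and 10.21, 10.01 and 10.25 in HCT116 wild-type-only cells. In DLD1 it had 9.77, 9.58 and 9.71 in mutant-only cells and 9.58, 9.48 and 9.52 in wild-type-only cells. The HCT116 arrays overlapped, and the nearest DLD1 arrays were at 9.584 in mutant-only and 9.575 in wild-type-only cells. The log2 change was -0.19 (SE 0.0814, adjusted p = 0.221) in HCT116 and 0.16 (SE 0.0814, adjusted p = 0.267) in DLD1, with adjusted p = 0.0917 for their difference. NPAS2 thus had the sign of BMAL1 in both lines, and in all 3 same-numbered comparisons of each line (-0.26, -0.19 and -0.13 in HCT116, 0.20, 0.10 and 0.19 in DLD1). With the replicate number as a block, its fall in HCT116 (adjusted p = 0.037) and its difference between lines (adjusted p = 0.0092) passed. The difference also passed without HCT116 mutant-only replicate 3 (adjusted p = 0.0329), and at an adjusted p of 0.0429 once HCT116 wild-type-only replicate 2 was left out. CLOCK, the histone acetyltransferase partner, had a log2 change of 0.07 in HCT116 (95% interval -0.06 to 0.20) and -0.06 in DLD1 (-0.18 to 0.07). BMAL2, the paralog of BMAL1, had -0.16 in HCT116 (adjusted p = 0.311) and 0.14 in DLD1 (adjusted p = 0.341).

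Of the 9 genes other than BMAL1, none passed an adjusted p of 0.05 by limma in either line, where 6.16% of all genes passed in HCT116 and 8.77% in DLD1, or in the test of the difference between lines, where 7.11% passed. At an unadjusted p under 0.05 the counts were 2 in HCT116 (18.5% of all genes), 0 in DLD1 (22.3%) and 2 for the difference (19.2%). Same-numbered arrays of a line deviated together, and with that number as a block 3 genes passed in HCT116 (NPAS2, PER1 and PER2, against 9.84% of all genes), 0 in DLD1 (13.5%) and 2 for the difference (NPAS2 and PER1, 11.3%). Groups without overlap numbered 0 of the 9 genes in HCT116, where 22.0% of all genes had such groups, and 2 of the 9 in DLD1 (NPAS2 and PER1, against 28.3%). The HCT116 count was 1 (PER1) without HCT116 mutant-only replicate 1. The count for the difference was 1 without HCT116 mutant-only replicate 1 (PER1) or 3 (NPAS2) and 2 without HCT116 wild-type-only replicate 2 (NPAS2 and NR1D2).

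The PER genes, which encode the repressors that hold CRY proteins in the complex, lay somewhat higher in HCT116 mutant-only cells, within the spread of the arrays. PER2 had log2 levels of 7.76, 8.73 and 8.39 in HCT116 mutant-only cells and 7.60, 8.27 and 8.21 in HCT116 wild-type-only cells. PER1 had 8.46, 9.19 and 8.83 in HCT116 mutant-only cells and 8.37, 8.68 and 8.62 in HCT116 wild-type-only cells. Both genes overlapped between genotypes, and in both the array numbered 1 was the lowest of its group. The log2 changes in HCT116 were 0.26 for PER2 (SE 0.229, adjusted p = 0.629), 0.27 for PER1 (SE 0.137, adjusted p = 0.327) and 0.27 for PER3 (SE 0.155, adjusted p = 0.405). Each of the 3 genes was higher in mutant-only cells in every same-numbered comparison, by 0.09 to 0.53. With the block, PER1 (adjusted p = 0.0449) and PER2 (adjusted p = 0.0353) passed and PER3 did not (adjusted p = 0.0596). Without HCT116 mutant-only replicate 1, PER1 passed at a log2 change of 0.45 (adjusted p = 0.0366).

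In DLD1 the PER genes gave no common direction. PER1 had 7.71, 7.65 and 7.72 in DLD1 mutant-only cells and 7.79, 7.80 and 7.91 in DLD1 wild-type-only cells, groups that did not overlap, with a log2 change of -0.14 (SE 0.137, adjusted p = 0.615). PER2 had 8.69, 8.997 and 9.26 in DLD1 mutant-only cells and 8.77, 8.93 and 9.14 in DLD1 wild-type-only cells, a log2 change of 0.04 (95% interval -0.46 to 0.53). PER3 had a log2 change of -0.08 (95% interval -0.42 to 0.25). The difference between the lines for PER1 was 0.41 (adjusted p = 0.279, and 0.0299 with the block). Without HCT116 mutant-only replicate 1 it was 0.59 (adjusted p = 0.0316).

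The cryptochromes CRY1 and CRY2, the main transcriptional repressors of the loop, showed no genotype change that exceeded the spread. CRY1 had 7.38, 8.07 and 7.64 in HCT116 mutant-only cells and 7.66, 7.58 and 7.76 in HCT116 wild-type-only cells. In DLD1 it had 9.13, 8.86 and 9.31 in mutant-only cells and 8.84, 8.86 and 9.01 in wild-type-only cells. Its log2 change was 0.02 in HCT116 (95% interval -0.29 to 0.33) and 0.20 in DLD1 (-0.12 to 0.51). CRY2 had intervals of -0.20 to 0.27 in HCT116 and -0.23 to 0.24 in DLD1.

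NR1D2, the REV-ERB beta receptor that represses BMAL1, and DBP, the D-box activator, are direct targets of the BMAL1 pair. NR1D2 had 10.59, 10.66 and 10.76 in HCT116 mutant-only cells and 10.23, 10.67 and 10.43 in HCT116 wild-type-only cells. In DLD1 it had 9.88, 9.97 and 10.16 in mutant-only cells and 10.27, 10.16 and 10.12 in wild-type-only cells. Groups overlapped in both lines, and the change was 0.23 in HCT116 (SE 0.1, adjusted p = 0.236) and -0.18 in DLD1 (SE 0.1, adjusted p = 0.325) on the log2 scale. The difference between lines was 0.41 (95% interval 0.10 to 0.71, adjusted p = 0.115), and it passed at 0.52 (adjusted p = 0.0243) once HCT116 wild-type-only replicate 2 was left out. With array weights the DLD1 change was -0.28 (adjusted p = 0.0129) and the difference 0.47 (adjusted p = 0.0242). In that fit DLD1 wild-type-only replicate 1 weighed 6.23, against 0.73 and 0.44 for replicates 2 and 3. With the block, NR1D2 did not pass in HCT116 (adjusted p = 0.139), in DLD1 (0.213) or for the difference (0.0619). By same-numbered arrays its change was 0.36, -0.005 and 0.33 in HCT116, and -0.39, -0.19 and 0.04 in DLD1. The mean changes of NR1D2 had signs opposite to those of BMAL1 in both lines. DBP had 9.82, 10.02 and 9.90 in HCT116 mutant-only cells and 9.48, 9.89 and 9.77 in HCT116 wild-type-only cells, a log2 change of 0.20 (adjusted p = 0.365). In DLD1 the DBP change was -0.03 (95% interval -0.26 to 0.20).

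**Figure D2:**
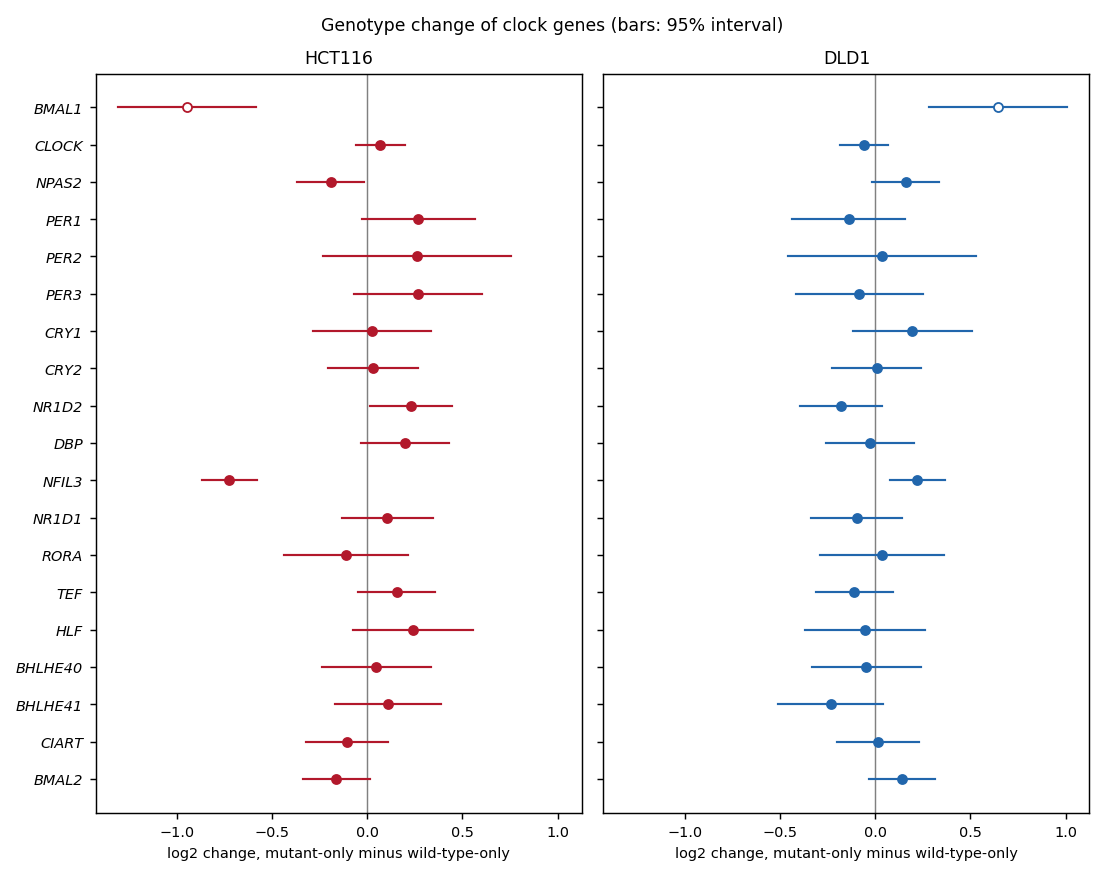
Log2 change, mutant-only minus wild-type-only (x axis), in HCT116 (left) and DLD1 (right) for the 10 clock genes and 9 other genes of the loop, with 95% intervals from the fit over 12 arrays and an open circle for BMAL1, which was not tested. NFIL3 is at -0.73 in HCT116 and 0.22 in DLD1, on the side of BMAL1 in both panels, while the intervals of the PER genes include 0.

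Among 30 measured genes of a wider clock list, 2 rose and 3 fell in HCT116 mutant-only cells (6.16% of all genes were called). In DLD1 mutant-only cells 1 rose and none fell (8.77%). The genotype change differed between the lines for 6 of the 30 (7.11%). The median log2 change of the list was 0.05 in HCT116 and 0.01 in DLD1, against 0.00 and -0.01 over all genes. In DLD1, 4 of the 30 had an unadjusted p under 0.05 (22.3% of all genes), and 3 genes (TSC22D3, NFIL3 and USP2) passed with the block (13.5% of all genes). In HCT116 the block added BTRC, a ubiquitin ligase subunit that binds PER proteins (0.24, adjusted p = 0.0688, and 0.0137 with the block). USP2 and BTRC are named after their values were seen. The HCT116 count of 5 was 3 without HCT116 mutant-only replicate 2 or 3 or HCT116 wild-type-only replicate 1, and the DLD1 count of 1 was 2 without DLD1 mutant-only replicate 1 or 2 or HCT116 mutant-only replicate 2.

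NFIL3, the basic leucine zipper repressor that competes with DBP for D-boxes and is itself repressed by REV-ERB in mouse, had the direction of BMAL1 in both lines. It had log2 levels of 9.68, 9.55 and 9.74 in HCT116 mutant-only cells and 10.43, 10.34 and 10.37 in HCT116 wild-type-only cells. In DLD1 it had 9.09, 8.89 and 9.06 in mutant-only cells and 8.77, 8.74 and 8.87 in wild-type-only cells. The genotypes did not overlap in either line. NFIL3 fell in HCT116 by 0.73 on the log2 scale (SE 0.0669, adjusted p = 1.96e-05) and its DLD1 change was 0.22 (SE 0.0669, adjusted p = 0.0591, and 0.0229 with the block). The difference between lines was -0.95 (SE 0.0947, adjusted p = 3.94e-05). The DLD1 change also passed without DLD1 mutant-only replicate 2 (0.28, adjusted p = 0.0271) or HCT116 mutant-only replicate 2 (adjusted p = 0.0499). It passed too after each array was centred on its median (0.27, adjusted p = 0.0173). That centring moved the median DLD1 change of all genes to 0.0376, from -0.00715 in the main fit.

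Other regulators of BMAL1 and other PAR bZIP factors did not pass. NR1D1, the REV-ERB alpha receptor, had a log2 change of 0.11 in HCT116 (adjusted p = 0.701) and -0.10 in DLD1 (adjusted p = 0.678). RORA, the activator at ROR elements, had -0.11 (adjusted p = 0.78) and 0.04 (adjusted p = 0.925). The DBP relatives TEF (0.15 in HCT116, -0.11 in DLD1) and HLF (0.24 in HCT116, -0.05 in DLD1) had the signs of NR1D2 in both lines, each with an adjusted p of 0.43 in HCT116. Of the E-box-binding repressors, BHLHE41 had 0.11 in HCT116 and -0.23 in DLD1 (adjusted p = 0.317) and BHLHE40 0.05 and -0.05. The BHLHE41 change in DLD1 passed in a fit of DLD1 arrays only (adjusted p = 0.0388). Without HCT116 mutant-only replicate 1 its difference between lines was 0.53 (adjusted p = 0.0179), against 0.34 (adjusted p = 0.352) with all arrays. CIART had -0.11 and 0.01.

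Taken by their known element, 17 E-box targets were measured, the PER and CRY genes, NR1D2 and DBP among them. In HCT116, 14 of the 17 had a change above 0 and 3 below, with a median of 0.11, where 49.5% of all genes lay above 0. In DLD1, 8 lay above 0 and 9 below, with a median of -0.03, where 47.3% of all genes lay above 0. In HCT116, 1 of the 17 passed (6.16% of all genes did). This was NAMPT, the rate-limiting enzyme of NAD salvage, which fell by 0.32 (adjusted p = 0.00201). In DLD1 none passed (8.77% of all genes did). With the replicate number as a block, PER1, PER2 and NAMPT passed in HCT116 (9.84% of all genes) and USP2 in DLD1 (13.5%). With single arrays left out the HCT116 count above 0 ranged from 10 to 15 and the DLD1 count from 5 to 10. The lowest HCT116 count came without HCT116 mutant-only replicate 2, and the lowest DLD1 count without DLD1 wild-type-only replicate 2. Of the ROR element targets other than BMAL1, NFIL3 and NPAS2 lay below 0 in HCT116 and above 0 in DLD1, CRY1 lay above 0 in both lines, and CLOCK was at 0.07 in HCT116 and -0.06 in DLD1.

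The other called genes of the wider list act on clock proteins or are clock outputs. PRKAA2, a catalytic subunit of AMP-activated kinase, which marks CRY1 for degradation in mouse, had 6.99, 6.95 and 6.92 in HCT116 mutant-only cells and 5.69, 5.74 and 5.65 in HCT116 wild-type-only cells. It rose at least 2.39-fold, a lower bound because the HCT116 wild-type-only level is not shown to be above background (log2 change 1.25, SE 0.0467, adjusted p = 4.24e-09). In DLD1 its change was -0.05 (95% interval -0.16 to 0.05), and the difference between lines was 1.31 (adjusted p = 1.27e-07). The ubiquitin ligase HUWE1 rose by 0.20 in HCT116 (adjusted p = 0.0465), a call that was lost when any of the 6 HCT116 arrays was left out (adjusted p between 0.0553 and 0.163). It was also lost without DLD1 mutant-only replicate 1 (0.065), 2 (0.0648) or 3 (0.0598) or DLD1 wild-type-only replicate 1 (0.0705), and in a fit of HCT116 arrays only (0.126).

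KLF9, a glucocorticoid-induced zinc finger factor, fell by 0.26 in HCT116 (adjusted p = 0.0308). That call was lost without HCT116 mutant-only replicate 2 (0.1) or 3 (0.0939) or HCT116 wild-type-only replicate 1 (0.134) or 3 (0.0917). TSC22D3, a glucocorticoid-induced leucine zipper protein, had 9.18, 9.04 and 9.32 in DLD1 mutant-only cells and 8.61, 8.75 and 8.63 in DLD1 wild-type-only cells. It rose 1.43-fold there (adjusted p = 0.00189), and its HCT116 change was 0.04 (adjusted p = 0.857). PER1 is itself a glucocorticoid target, and of 7 such genes measured beside it 1 fell in HCT116 (KLF9, where 6.16% of all genes were called). In DLD1 (8.77%) TSC22D3 rose and DUSP1 fell by 0.30 (adjusted p = 0.0356). The DUSP1 call was lost without HCT116 mutant-only replicate 1 (0.05), DLD1 mutant-only replicate 1 (0.142) or 2 (0.114), or DLD1 wild-type-only replicate 2 (0.105) or 3 (0.12). These genes gave no common direction in DLD1.

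The clock genes differed between arrays of 1 group more than most genes did. The within-group SD of PER2 was 0.354 on the log2 scale, higher than that of 99.7% of genes, and the SD of BMAL1 was 0.256 (99.1%). Those of PER3 (0.234), CRY1 (0.217) and PER1 (0.205) also lay above that of 97% of genes, and 8 of the 10 genes lay above the 90th percentile. CLOCK (0.0658, the 27.1th percentile) and NPAS2 (0.11) varied less, and the median over all genes was 0.0841. Much of this spread followed the replicate number within a line. With the number as a block the SD of PER2 was 0.0974, that of BMAL1 0.119 and that of PER3 0.126. Of the 10 genes, 7 fell by more than 1.5 times, while CRY1 (0.22), CRY2 (0.138) and NR1D2 (0.148) did not. The median SD over all genes was 0.0686 with the block. The share of all genes whose SD fell by more than 1.5 times was not counted, so the fall is not shown to be particular to the clock genes. In the wider clock list described above, CSNK1D (2.56 times) and GSK3B (2.06) passed that factor, and RORA (1.17) and NR1D1 (0.84) did not.

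In HCT116, the array numbered 1 had the highest BMAL1 and the lowest PER1, PER2, PER3 and DBP of its group in both genotypes. PER2 deviated from its group mean there by -0.53 in mutant-only and -0.43 in wild-type-only cells, and BMAL1 by 0.21 and 0.30. The array numbered 2 had the lowest BMAL1 (-0.27 and -0.40) and the highest PER1, PER2, PER3 and DBP in both genotypes. On the arrays numbered 1 and 2, BMAL1 and the PER genes thus deviated in opposite directions in both genotypes. On the HCT116 arrays numbered 3, BMAL1 (0.06 in mutant-only and 0.10 in wild-type-only cells) and PER2 (0.10 and 0.18) lay on the same side. NR1D1 deviated by 0.03 and -0.10 on the HCT116 mutant-only arrays numbered 1 and 2, and by -0.30 and 0.23 on the wild-type-only ones. For NR1D2 these values were -0.08 and -0.01, and -0.21 and 0.23. In DLD1, PER2 was lowest on the arrays numbered 1 (-0.29 in mutant-only and -0.18 in wild-type-only cells) and highest on those numbered 3 (0.28 and 0.20), where BMAL1 was at -0.05 and -0.26. What the numbers stand for, such as a shared day, is not given in the sources used here.

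**Figure D3:**
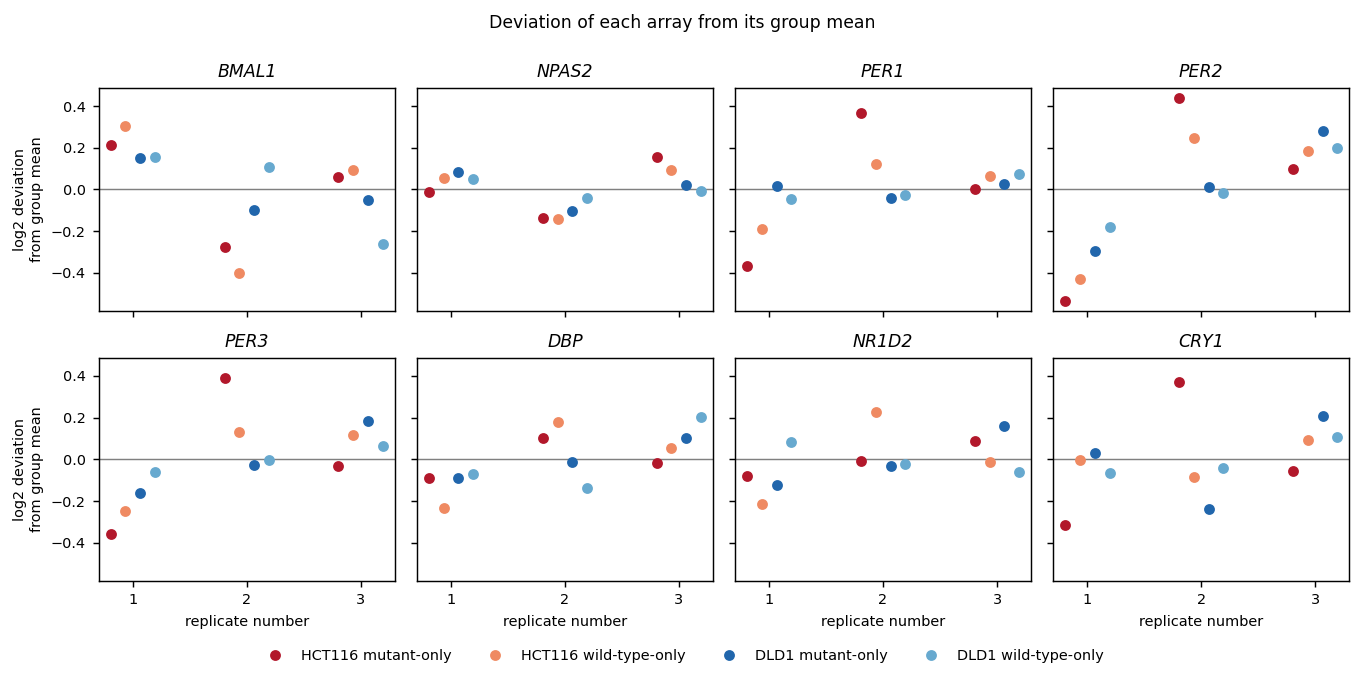
Deviation of each array from the mean of its group on the log2 scale (y axis) for 8 clock genes, by replicate number (x axis) and group (colour). In HCT116, PER2 lies at -0.53 and -0.43 on the arrays numbered 1, where BMAL1 lies at 0.21 and 0.30.

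Of the 9 genes other than BMAL1, 7 differed in mutant-only cells (50.6% of all genes did) and the same 7 in wild-type-only cells (48.8%). These comparisons use the same arrays as the genotype changes. Without DLD1 mutant-only replicate 2 the first count was 5. Of the 8 epithelial markers, 7 were lower in HCT116 among mutant-only cells and 6 among wild-type-only cells, CDH1 by -1.60 and -1.85 and CDX2 by -1.63 and -1.55 on the log2 scale. Of the 6 markers of other cell types, COL1A1 was higher in HCT116, by 0.39 and 0.38. The part of these markers in the line differences was not tested. CRY1 was 2.65-fold lower in HCT116 than in DLD1 among mutant-only cells (adjusted p = 1.58e-06) and 2.35-fold lower among wild-type-only cells (adjusted p = 6.02e-06), with no overlap of the lines. PER2 was 1.62-fold lower in HCT116 among mutant-only cells (adjusted p = 0.0208, and 0.11, 0.0507 and 0.0908 without HCT116 mutant-only replicate 1 or DLD1 mutant-only replicate 2 or 3) and 1.89-fold lower among wild-type-only cells (adjusted p = 0.00398). PER1 went the other way, 2.19-fold higher in HCT116 among mutant-only cells (adjusted p = 8.14e-06) and 1.65-fold higher among wild-type-only cells (adjusted p = 0.000487). CLOCK was slightly lower in HCT116, by -0.21 and -0.33 on the log2 scale in mutant-only and wild-type-only cells.

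DBP was 1.75-fold higher in HCT116 mutant-only than in DLD1 mutant-only cells (adjusted p = 2.02e-05) and 1.496-fold higher among wild-type-only cells (adjusted p = 0.000395). NR1D2 was 1.59-fold higher in HCT116 among mutant-only cells (adjusted p = 6.42e-05) and 1.196-fold higher among wild-type-only cells (adjusted p = 0.0473). The second NR1D2 call was lost without HCT116 mutant-only replicate 1 (0.0535) or 2 (0.0584), HCT116 wild-type-only replicate 2 (0.228) or 3 (0.0815), DLD1 mutant-only replicate 2 (0.0588), or DLD1 wild-type-only replicate 2 (0.109) or 3 (0.127). NPAS2 was higher in HCT116 by 0.28 on the log2 scale among mutant-only cells (adjusted p = 0.0112, lost without HCT116 mutant-only replicate 3 (0.0565) or DLD1 mutant-only replicate 2 (0.0556)) and by 0.63 among wild-type-only cells (adjusted p = 1.63e-05). PER3 and CRY2 did not pass, though PER3 did among mutant-only cells without HCT116 mutant-only replicate 1 (0.44, adjusted p = 0.0191). CRY2 had intervals of -0.23 to 0.23 in mutant-only and -0.26 to 0.21 in wild-type-only cells. BMAL1 itself was lower in HCT116 among mutant-only cells (-0.52, SE 0.168) and higher among wild-type-only cells (1.08, SE 0.168). These values come from the same arrays as its genotype changes and were not tested.

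RORA and NR1D1, receptors that act on BMAL1 through ROR elements, also differed between the lines. The related receptor RORB did not pass (-0.06 in mutant-only and 0.05 in wild-type-only cells). RORA had 6.11, 5.73 and 5.96 in HCT116 mutant-only cells and 10.44, 10.71 and 10.18 in DLD1 mutant-only cells, a signal at least 22.7-fold lower in HCT116 (adjusted p = 1.58e-11). In wild-type-only cells it had 5.82, 6.13 and 6.19 in HCT116 and 10.56, 10.54 and 10.12 in DLD1 (at least 20.5-fold lower, adjusted p = 2.17e-11). These folds are lower bounds, since the HCT116 levels are not shown to be above background. NR1D1, the opposing repressor, was 2.82-fold higher in HCT116 among mutant-only cells (adjusted p = 5.78e-08) and 2.45-fold higher among wild-type-only cells (adjusted p = 2.66e-07). BMAL1 had its highest group mean in HCT116 wild-type-only cells (8.95 ± 0.36, SD, n = 3). NFIL3 was 1.56-fold higher in HCT116 among mutant-only cells (adjusted p = 1.77e-06) and 3.01-fold higher among wild-type-only cells (adjusted p = 1.55e-10).

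**Figure D4:**
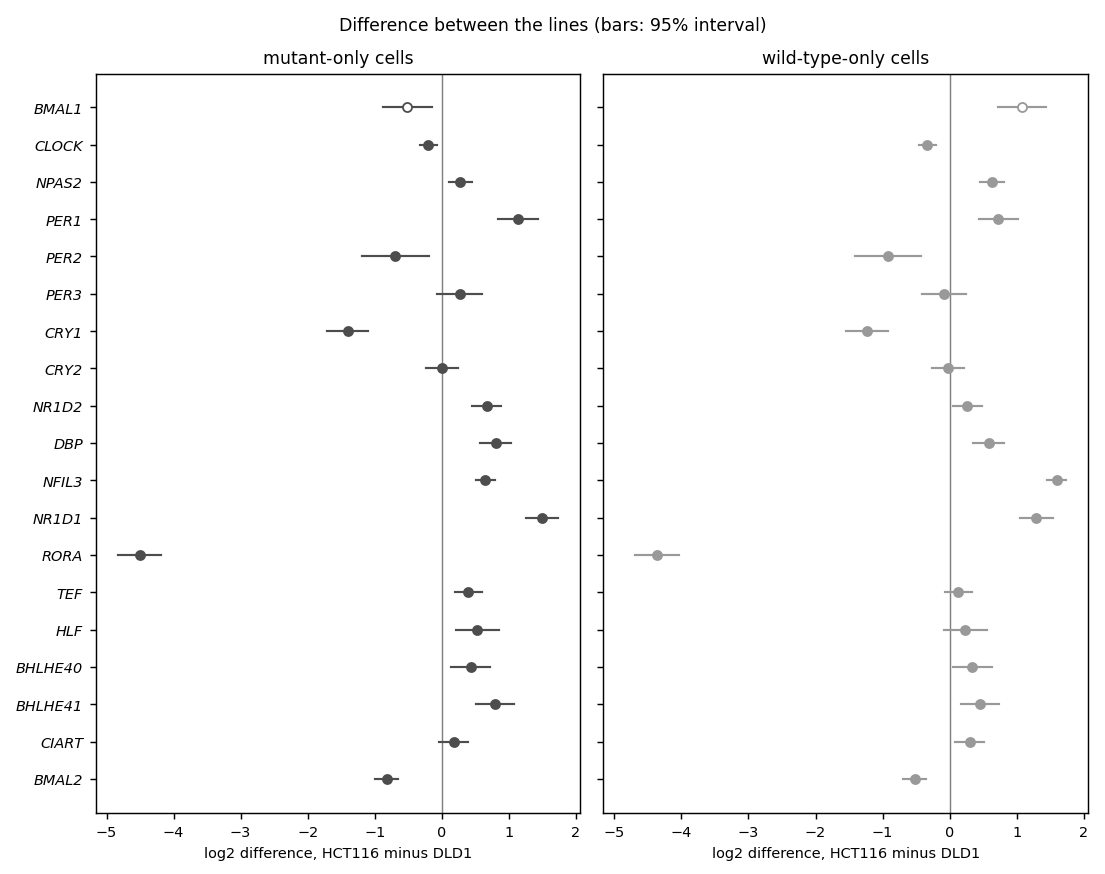
Log2 difference, HCT116 minus DLD1 (x axis), in mutant-only cells (left) and wild-type-only cells (right) for the 10 clock genes and 9 other genes of the loop, with 95% intervals and an open circle for BMAL1, which was not tested. RORA lies at -4.51 and -4.36, NR1D1 at 1.49 and 1.29, and CRY2 near 0 in both panels.

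The 5 genes whose centred values over the 12 arrays lay nearest to those of BMAL1 were P4HA1, ATXN1, GEM, PTGR1 and SPATA13, with root mean square differences of 0.247, 0.267, 0.281, 0.284 and 0.292 on the log2 scale. They were chosen for this likeness and carry no test. GEM, a small GTP-binding protein, averaged 8.13 ± 0.03 in HCT116 mutant-only cells and 8.69 ± 0.15 in HCT116 wild-type-only cells (SD, n = 3). In DLD1 it averaged 8.17 ± 0.10 in mutant-only cells and 7.52 ± 0.07 in wild-type-only cells (SD, n = 3). P4HA1, a subunit of collagen prolyl hydroxylase, had changes of -0.55 in HCT116 and 0.52 in DLD1. SPATA13 had -0.85 in HCT116 and 0.02 in DLD1. None of the 5 is a clock gene of the lists used here. Neither of the authors' deposited tables of genes past a 2-fold change, with 35 and 44 clusters, lists any of the 10 clock genes.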

How the data were processed

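Total RNA (500 ng per sample, per the labels' protocols) was hybridised to Affymetrix HuGene arrays. The authors deposited 28869 transcript clusters as log2 values. The sources used here do not name the background correction or the normalization. The authors also deposited tables of selected clusters with an unadjusted p-value and a fold ratio from a moderated test, per the file headers; here they were used only to look up the clock genes. Per-sample columns left unused numbered 0.

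Symbols came from the platform annotation, updated through gene identifiers in RefSeq's table for GRCh38.p14. Clusters with 1 symbol numbered 19310, with several 1752 and with none 7807. The cluster with the highest mean represented a gene, which left 18377 genes. Genes of the lists without such a cluster are not reported here. The genes and lists were chosen with earlier results of these data known.

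Means of the 4 groups were fitted over all 12 arrays by limma 3.58.1, run in R 4.3.3 (lmFit, then eBayes, 8 residual and 5.17 prior degrees of freedom), and checked on simulated data. P-values are two-sided, with Benjamini-Hochberg adjustment across the 18377 genes, and called means an adjusted p under 0.05. Intervals are 95% intervals of the fit. BMAL1 entered the fit and was not tested. Named were the 10 genes, 9 fixed genes of the loop, called genes of the wider list and glucocorticoid targets (at most 4 per list) and the 5 genes nearest to BMAL1.

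Arrays within a group correlated by 0.9952 to 0.9983 across clusters and none were identical. Nothing says the replicates came from separate derived lines, so p-values measure the spread between these cultures. The labels state no pairing. Deviations from group means correlated by 0.129 to 0.462 in all 6 same-numbered pairs of a line, above the minimum of 0.1, and by -0.321 to 0.17 in other pairs of a line, so the number within a line was also fitted as a block (4 residual degrees of freedom). For contrasts between lines the number was shared by the lines (6 residual degrees of freedom). Alternatives were quantile, median and cyclic loess scaling, leaving out genes below the 40th percentile of mean level, the mean of all clusters, array weights, only the arrays compared, and leaving out arrays. The number of arrays limits the precision.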

Additional observations from a re-analysis of the deposited data

Results flagged for a closer look

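The genotype change differed between the lines for 6 tested genes of the wider lists. The HCT116 change minus the DLD1 change was 1.31 for PRKAA2, 0.25 for GSK3B, -0.95 for NFIL3, -0.47 for TSC22D3, -0.41 for KLF9 and -0.33 for NAMPT on the log2 scale (limma, adjusted p = 1.27e-07, 0.049, 3.94e-05, 0.0299, 0.0148 and 0.0129). GSK3B, a kinase that phosphorylates clock proteins, had a change of 0.16 in HCT116 and -0.09 in DLD1. Its difference passed in the fit with the block (adjusted p = 0.0315) and was lost without any 1 of the 3 HCT116 mutant-only arrays (0.0686 to 0.101), HCT116 wild-type-only replicate 1 (0.106) or 2 (0.0976), any 1 of the 3 DLD1 mutant-only arrays (0.0728 to 0.103), or DLD1 wild-type-only replicate 1 (0.0906) or 2 (0.106). The TSC22D3 difference was lost without HCT116 mutant-only replicate 1 (0.0767) or 3 (0.0616), HCT116 wild-type-only replicate 3 (0.0623), DLD1 mutant-only replicate 1 (0.0647) or 3 (0.0735), or DLD1 wild-type-only replicate 1 (0.0791) or 3 (0.063). The NFIL3 difference passed under all alternatives run, and the PRKAA2 difference under all but the one that left out dim genes, where PRKAA2 was not among the genes tested. For BMAL1 the difference was -1.59, with every same-numbered comparison below 0 in HCT116 and above 0 in DLD1; it was not tested, since this property chose the list. Groups of 3 arrays are too small for a check of single outlying arrays.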

How the results depend on the processing

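With the replicate block the count of the 9 tested clock genes called was 3 in HCT116 and 2 for the difference between lines, against 0 and 0 without it. Array weights gave 1 in DLD1 (NR1D2, -0.28, adjusted p = 0.0129) and 2 for the difference. With arrays left out, this count ranged from 0 to 1 in HCT116 and from 0 to 2 for the difference, and in DLD1 it was 0 throughout. The 7 genes that differed between the lines numbered 6 or 7 under all alternatives in wild-type-only cells and 5 to 7 in mutant-only cells. For the wider list, the HCT116 count of 5 was 3 with array weights and 3 in a fit of HCT116 arrays only, and it ranged from 2 to 5 with arrays left out. The DLD1 count of 1 was 3 with the replicate block, 2 with quantile normalization, 3 with arrays centred on their medians, 2 with cyclic loess, 2 with dim genes left out, 4 with array weights and 2 in a fit of DLD1 arrays only, and it ranged from 0 to 2 with arrays left out. With quantile normalization 5 of the 17 E-box targets lay above 0 in DLD1, against 8. The causes of these shifts were not tested. Leaving out all arrays of 1 number, and the counts above 0 under alternatives, were chosen after seeing the data. Of 2311 values of single genes under an alternative, 2184 kept their side of the threshold or moved by less than 1 SD. Of the others, 88 lost a call, 24 gained one, 15 moved further and 0 turned a called direction. Among 1468 uncalled values compared, 74 had a sign other than in the main fit. Scaling moved the median change of all genes most in DLD1 with arrays centred on their medians. There it was 0.0376 on the log2 scale, against -0.00715 in the main fit. Signal over background was not measured, which limits the low genes, and 3 arrays a group limit the precision of PER1, PER2, PER3 and CRY1, whose within-group SD was above 0.2. Without a series of harvest times, phase cannot be separated from level.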
